A study of Mus musculus with 19 samples.

Results

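The comparison described here set plantaris tendons of mice without scleraxis, labelled Scx-, against tendons of mice with it, labelled Scx+, after 7 days of a growth stimulus. It took the 8 libraries that the labels place in these groups, 4 Scx- and 4 Scx+, of 19 in the series. Of 24972 genes listed, 16625 had enough signal to be tested. RNA had been taken from the plantaris tendon, a slender tendon of the hindlimb, and sequenced. Per the series title the Scx- mice carried a targeted deletion of the gene, and the labels say that all 8 samples of day 7 came from mice given tamoxifen, a drug often used to switch on an inducible Cre recombinase. A further 3 libraries, from Scx+ tendons without tamoxifen and without the stimulus, are given beside the results as the unstimulated level, and 8 libraries from day 14 are used where a difference between days is tested. The labels used here name neither the alleles, the promoter that drives any Cre, the strain, the sex, the age nor the kind of stimulus. No unstimulated Scx- group was included, so a difference that existed before the stimulus and a changed response to it cannot be told apart. The replicates are not stated to come from separate animals, so the p-values measure the spread between these samples.

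Scleraxis is a transcription factor of the basic helix-loop-helix family that marks tendon progenitors and tenocytes, binds E-box sequences in DNA and is needed for the formation of force-transmitting tendons. A pair of other gene systems enters the results. Type I interferons act through a cell surface receptor and transcription factors such as STAT2 and IRF9, which bind response elements in front of many antiviral genes. Red cell precursors make haem and globin chains and a membrane skeleton of their own, and most of these products are found in few other cells.

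Values are the authors' scaled read signal per gene, rescaled to a common level between libraries, and the values of 4 libraries are listed in the order of replicates 1 to 4. How many reads stand behind a value is not known. The deposited signal summed to between 45.0 and 48.5 M (mega) units per Scx+ library and between 41.4 and 46.2 M per Scx- library. The 3 unstimulated libraries summed to between 67.8 and 79.8 M. Tenocyte markers (7 genes) summed to between 5714 and 11263 ppm of the summed signal in Scx+ and between 1888 and 3975 ppm in Scx-, without overlap, and none was at 0 throughout a group. Scx itself is 1 of the 7. Thbs4 had the largest values of the 7, from 167276 to 338541 in Scx+ and from 67398 to 126344 in Scx-, so the sum rests largely on it. RNA of skeletal muscle was present in unequal amounts. The 6 muscle fibre markers made up 1418, 195, 12280 and 13214 ppm in the Scx+ libraries and 15141, 21829, 38556 and 2348 ppm in the Scx- libraries. Scx+ replicates 1 and 2 and Scx- replicate 4 thus held least. The unstimulated libraries held far more, between 143611 and 176817 ppm. In comparisons with those libraries, the stimulus, the tamoxifen and the muscle content cannot be told apart.

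The targeted gene separated the groups first. Scx, on chromosome 15 (76457452 to 76459458, GRCm38), stood at 8044, 5609, 3293 and 2772.5 in the Scx+ libraries and at 17.2, 9.0, 8.9 and 5.7 in the Scx- libraries, and the unstimulated libraries lay between, at 593, 442.5 and 319. The lowest Scx+ value was far above the highest Scx- value, and the means differed 483-fold (exact two-sided permutation p = 0.0286, the smallest that 4 against 4 allows). None of the 25 genes tested of those listed around Scx on chromosome 15 passed the test described next.

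Across all genes, 128 of 16625 differed between Scx- and Scx+ (0.770%), 72 higher in Scx- (0.433%) and 56 lower (0.337%). The test was limma on log2 of the rescaled signal plus 2, with Benjamini-Hochberg adjustment over all genes tested and a threshold of 0.05. An unadjusted p under 0.05 was reached by 1207 genes. The 128 genes form 4 groups by the lists to which they belong. Members of the interferon and MHC class I lists made up 44 of those that rose, and 28 genes outside these lists rose. Genes of red cell precursors and globins made up 12 of those that fell, and 44 other genes fell, among them the best-known genes of tenocytes. Log2 fold changes ran from 0.78 to 3.29 for the rises and from -0.53 to -14.01 for the falls. These fold changes understate the change of genes with low signal, because of the added 2. The 2 groups of 4 values did not overlap in 124 of the 128 genes, against 7.89% of all genes tested, and the exceptions were Nrxn2, Ifi35, Mndal and Ifih1. A call and a lack of overlap rest on the same day 7 values, so this share is no separate support for the calls. The largest rises and falls named were also chosen among genes without overlap. The number of calls depended on single libraries. It was 48 without Scx+ replicate 1, 46 without Scx+ replicate 2, 74 without Scx+ replicate 3, 46 without Scx- replicate 2 and 73 without Scx- replicate 3. It was 50 with the mean level of the muscle fibre list as a covariate, and 41 genes, 20 higher and 21 lower, passed in all 8 fits that left out 1 day 7 library. Fitted on the 8 day 7 libraries alone, 39 were higher and 62 lower, so that 38.6% of the calls were rises, against 56.2% in the fit of all libraries. In the counts of gene lists, members are those tested.

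**Figure D1:**
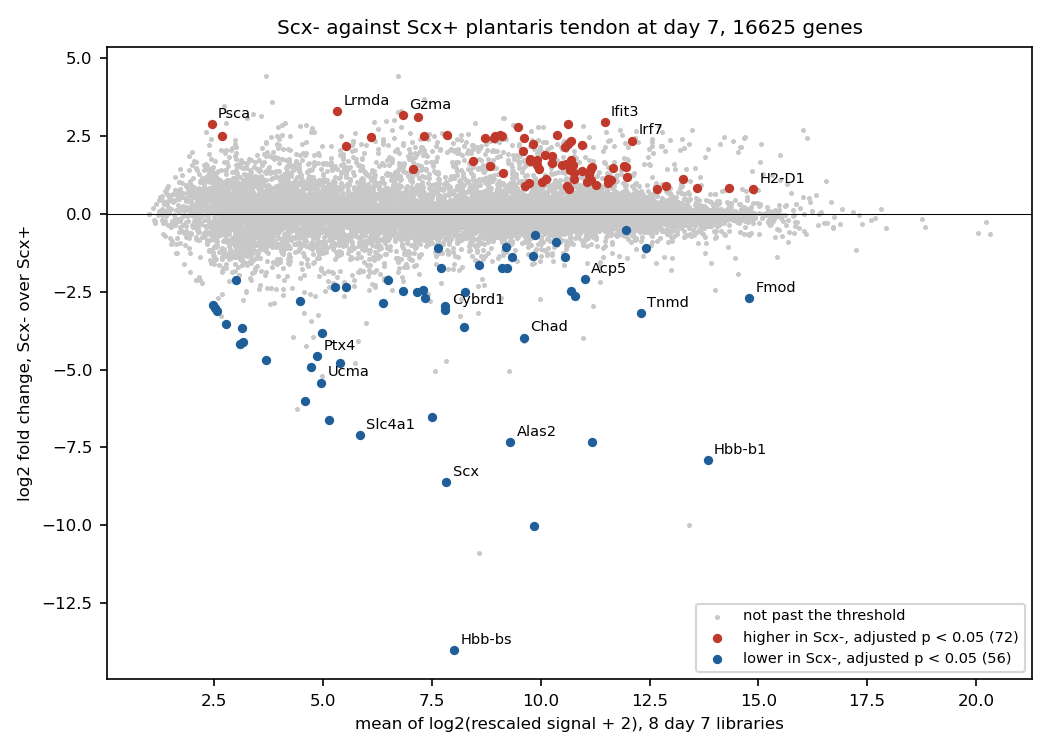
Log2 fold change of Scx- over Scx+ at day 7 (vertical axis) against the mean of log2(rescaled signal + 2) over the 8 day 7 libraries (horizontal axis), 1 point per gene for 16625 genes; red points are the 72 genes higher in Scx- and blue points the 56 lower with an adjusted p under 0.05 by limma, and grey points the rest. The largest falls, down to -14.01, belong to globin genes, Scx and red cell genes, and the rises stay at or under 3.29.

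Of 14 genes of the tendon lineage, 5 were lower in Scx- (Scx, Tnmd, Fmod, Chad and Ptx4) and 0 higher, 9 did not pass, all 14 fold changes were negative, and their median was -2.02 log2 units, where the median over all genes tested was 0.02. The 14 genes averaged 9.14 ± 0.72 (SD, n = 4) on the log2 scale in Scx- and 11.63 ± 0.19 (SD, n = 4) in Scx+. Scx itself, the targeted gene, is 1 of the 14 and of the 5, so part of the fall of this mean was set by the design. In RNA from whole tissue, fewer cells of a type and less RNA per cell cannot be told apart. Tnmd, which encodes tenomodulin, a membrane glycoprotein of mature tenocytes, stood at 27749, 19029.9, 10065 and 10202 in Scx+ and at 2198, 1039, 2435 and 1443 in Scx-. Fmod, which encodes fibromodulin, a small proteoglycan that binds collagen fibrils, stood at 86796, 108653, 55264.5 and 51470.0 in Scx+ and at 30303, 6825, 9323 and 7845 in Scx-. For both genes every Scx- library lay under every Scx+ library, and Scx- replicate 1 held by far the most Fmod of the Scx- group. Chad encodes chondroadherin, a leucine-rich matrix protein that cells bind through an integrin. It stood at 3492, 6858, 2535 and 1565 in Scx+ and at 594.5, 132, 159.6 and 118 in Scx-, where replicate 1 was again the highest. The unstimulated libraries held 53199.5, 26675 and 14205.5 of Chad, above every Scx+ library. They held 3052, 1274 and 886.5 of Tnmd and 99449, 33362 and 22236.5 of Fmod. Ptx4, a member of the pentraxin family, was low but better separated, at 182, 80.2, 163 and 157 in Scx+ and at 13.7, 0.0, 8.6 and 1.9 in Scx- (-4.56 ± 0.67 log2 units (SE), adjusted p = 0.00277 by limma). Ptx4 and Scx passed in every fit without 1 library. The other calls did not: the number of the 14 genes that passed fell to 2 when Scx+ replicate 1 or 2 or Scx- replicate 2 or 4 was dropped, to 3 when the third replicate of either group was dropped, and to 2 with the level of the muscle fibre list as a covariate. The unadjusted p was under 0.05 for 9 of the 14 genes. Those short of the adjusted threshold included Thbs4, which encodes a thrombospondin of tendon matrix, at -1.16 ± 0.40 (SE, adjusted p = 0.353, limma), and the transcription factor gene Mkx, at -0.79 ± 0.41 (adjusted p = 0.767).

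Of 18 cartilage genes tested, 2 were lower in Scx- (Ucma and Chad) and 0 higher, 15 were negative, and the median was -1.68. The mean log2 level of the 18 overlapped, at 9.32, 10.50, 9.51 and 9.10 in Scx+ and at 9.25, 6.93, 7.59 and 7.08 in Scx-, where replicate 1 reached into the Scx+ range. Ucma, a secreted matrix protein of cartilage, stood at 429, 272, 84.0 and 166.5 in the Scx+ libraries and between 0.0 and 13.4 in the Scx- libraries, a difference of -5.42 ± 0.97 (SE; adjusted p = 0.0106, limma). Leaving out Scx+ replicate 1 or 2 or Scx- replicate 2 ended the call, with an adjusted p of at most 0.0564. Col11a2, a chain of a cartilage collagen, differed by -2.74 ± 0.66 and stayed short of the threshold (SE, adjusted p = 0.0768, limma), and so did Cilp2, a cartilage matrix protein, at -4.09 ± 0.95 (adjusted p = 0.0641). Chst5, an enzyme that adds sulphate to sugar chains, stood at 584.5, 173.5, 127 and 181 in Scx+ and at 24.7, 0.0, 3.7 and 11.2 in Scx- (-4.80 ± 0.94, SE, adjusted p = 0.0176, limma). Scx+ replicate 1 held the most Chst5, and the groups did not overlap. Leaving out Scx+ replicate 1 or 2 or Scx- replicate 2 or 3 ended the call, with an adjusted p of up to 0.0873. The summed markers of chondrocytes overlapped, from 247 to 1133 ppm in Scx+ and from 28.0 to 389 ppm in Scx-.

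Among 11 fibrillar collagen genes 0 passed, all 11 were negative with a median of -0.60, and 3 had an unadjusted p under 0.05. Their mean log2 level did not overlap, at 15.33, 16.07, 15.19 and 15.15 in Scx+ and at 15.01, 13.93, 14.45 and 14.02 in Scx-. The authors' deposited table calls both chains of collagen I lower, Col1a1 by -0.73 ± 0.22 and Col1a2 by -0.67 ± 0.21 (SE, adjusted p = 0.0221 and 0.036), where this fit gave -0.65 ± 0.41 and -0.61 ± 0.42 (SE, adjusted p = 0.8 and 0.821, limma). Among 30 genes of collagen processing and crosslinking 1 was lower, P3h2, a prolyl 3-hydroxylase of collagen, and 24 were negative with a median of -0.28. The authors' deposited table also calls the lysyl hydroxylase gene Plod1, at -0.46 ± 0.12 (SE, adjusted p = 0.00598), and this fit gave -0.45 ± 0.15 (SE, adjusted p = 0.29, limma). P3h2 differed by -1.74 ± 0.40 (SE; adjusted p = 0.0486, limma), and 7 of the 8 fits without 1 library put it back over the threshold, all but that without Scx- replicate 1 (adjusted p of up to 0.225). Of 15 small leucine-rich proteoglycans only Fmod and Chad passed, and the median of that list was -0.36. Kera, the corneal and tendon keratan sulphate proteoglycan keratocan, differed by -2.97 ± 0.99 without passing (SE, adjusted p = 0.315, limma). Of 15 transcription factors that act beside Scx in tendon, 1 was lower. This was Eya2, a transcriptional coactivator with phosphatase activity, at 508, 364, 332 and 341 in Scx+ and 143, 141, 133 and 57.9 in Scx-, without overlap (-1.75 ± 0.37, SE, adjusted p = 0.0305, limma). Eya2 passed in 1 of the 8 fits without 1 library, that without Scx- replicate 1, and its adjusted p in the others reached 0.133. None of the lists of elastic fibre genes (17 members), matrix proteases and inhibitors (30), TGF-beta ligands and receptors (19), BMP and GDF signals (33), IGF and FGF growth factors (28) or Wnt signals (33) held a gene past the threshold, and their medians lay between -0.35 and -0.01. Mmp9, a gelatinase made by osteoclasts and neutrophils among others, came close, at 11374, 6656, 4818 and 10797 in Scx+ and 2252.5, 335, 208 and 398 in Scx- (-3.98 ± 0.90, SE, adjusted p = 0.0525, limma).

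Several of the steadiest falls lay outside the lists of tendon and matrix. Aqp2, the water channel best known from the collecting duct of the kidney, stood at 1080.0, 959, 588 and 462 in Scx+ and at 136, 119, 119 and 129 in Scx-, where the 4 values were nearly alike. The difference was -2.52 ± 0.31 log2 units (SE; adjusted p = 0.000681, limma). Zfp185, which encodes a LIM domain protein of the actin cytoskeleton, stood at 5758, 4393, 2797 and 3313.5 in Scx+ and at 906, 544, 629 and 793.5 in Scx- (-2.47 ± 0.35, SE, adjusted p = 0.00239, limma). Strbp, which encodes an RNA-binding protein, was the most even of them, at 1475, 1571, 1229 and 1534 in Scx+ and 564, 475, 631 and 573 in Scx- (-1.37 ± 0.17, SE, adjusted p = 0.000819, limma). The groups stood clear of each other in all 3 genes. Nudt11, a hydrolase of inositol pyrophosphates, differed by -2.51 ± 0.34 and Lypd6, a membrane-anchored protein of the Ly6 family, by -2.49 ± 0.40 log2 units. Spink8, a putative inhibitor of serine proteases, differed by -3.67 ± 0.62 log2 units. Its signal was low and uneven, at 112, 25.2, 10.8 and 22.4 in Scx+ and at 0.0, 0.0, 0.0 and 2.7 in Scx-. Acp5, the tartrate-resistant acid phosphatase of osteoclasts and some macrophages, stood at 6131.5, 4024, 2633 and 5277 in Scx+ and at 1614, 934, 1024 and 647 in Scx- (-2.10 ± 0.33, SE, adjusted p = 0.0051, limma). Acp5 was the one gene past the threshold among 18 genes of lysosomes and collagen uptake, whose median was 0.30. These 7 genes passed in every fit without 1 library. Cybrd1, a ferric reductase that serves iron uptake, stood at 823, 1018, 422 and 522.5 in Scx+ and at 87.4, 51.7, 105 and 65.2 in Scx- (-3.10 ± 0.56, SE, adjusted p = 0.0106, limma). Its adjusted p rose over the threshold, to at most 0.0572, when Scx+ replicate 1 or 2 or Scx- replicate 2 was left out. The other 25 genes of iron and haem handling did not pass.

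**Figure D2:**
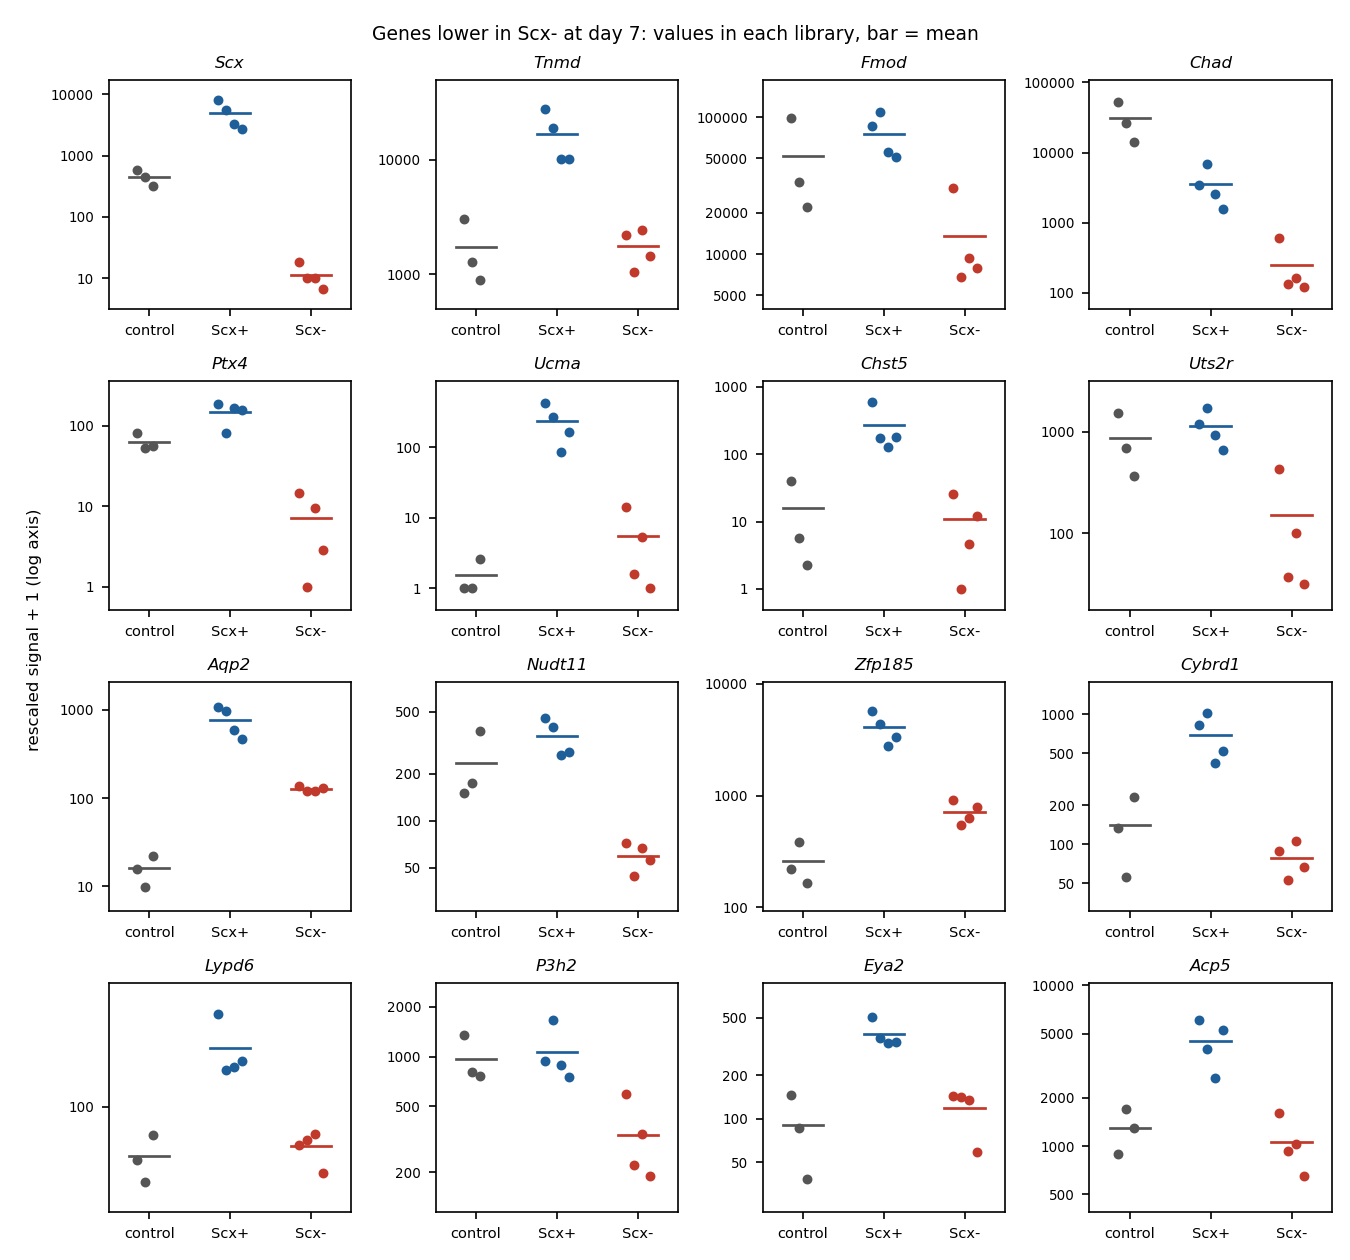
Rescaled signal plus 1 on a log axis for 16 genes lower in Scx-, with 1 point per library for the 3 unstimulated controls (grey), the 4 Scx+ (blue) and the 4 Scx- (red) libraries of day 7 and a bar at each group's mean. In every panel all 4 Scx- points lie under all 4 Scx+ points; the distance is largest for Scx, with means 483-fold apart, and the Scx- points of Aqp2 lie nearly on 1 level.

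The non-coding transcript of the Rosa26 locus, Gt(ROSA)26Sor, stood at 284, 277, 291 and 296 in the 4 Scx+ libraries and at 121, 95.0, 149 and 185 in the 4 Scx- libraries. The Scx+ values were almost equal and all Scx- values were lower, by -1.09 ± 0.22 log2 units (SE; adjusted p = 0.0202, limma). The gene lies on the minus strand of chromosome 6 (113067428 to 113077333), and none of the other 6 genes listed around it passed, with a median over the 7 of -0.12. Its neighbour Srgap3 stood at 1381, 1678.5, 1506 and 1910.4 in Scx+ and at 891, 697, 681 and 648 in Scx-, without overlap, and differed by as much, -1.15 ± 0.35, but with a wider error (SE, adjusted p = 0.221, limma). The authors' deposited table gives Srgap3 -1.15 ± 0.17 (SE) with an adjusted p of 1.92e-09. The call of Gt(ROSA)26Sor was lost without Scx- replicate 2 or any 1 Scx+ library (adjusted p of up to 0.108).

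Interferon-induced genes were the largest group that rose in Scx-. Of 59 genes induced by type I interferon, 28 were higher and 0 lower, 57 had a positive fold change, and the median was 1.48 log2 units, against 0.02 over all genes. An unadjusted p under 0.05 was reached by 53 of the 59. The 59 genes took up 0.161%, 0.174%, 0.202% and 0.253% of the deposited signal in the Scx+ libraries and 0.323%, 0.705%, 0.464% and 0.439% in the Scx- libraries. Their share was 0.0476% to 0.0677% in the unstimulated libraries, where muscle fibre genes took up 26.5% to 31.8% and left less to other genes. Scx- replicate 2 held most and replicate 1 least of its group, and the groups did not overlap. Among 31 ligands, receptors and regulators of the interferon system, 2 were higher and the median was 0.21. These were Irf7 and Stat2. The receptor chains differed little, Ifnar1 by -0.07 ± 0.18 and Ifnar2 by 0.12 ± 0.17 (SE, adjusted p = 0.976 and 0.944, limma).

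Many of these genes share a short motif close to their start. The motif searched was the core of the interferon-stimulated response element, GAAA, any 2 bases and GAAA again, on both strands (TTTC, any 2 bases and TTTC on the opposite one), in windows from 250 bases before to 50 after each RefSeq transcript start (GRCm38.p6). A window was at hand for 92 of the 128 genes. The motif stood in a window of 18 of 38 interferon and MHC class I genes that rose (47.4%), of 5 of 19 other genes that rose (26.3%) and of 2 of 35 genes that fell (5.71%), against 3.80% of the tested genes with a window and 3.99% of all 27025 genes in the table. A match describes letters and shows no bound factor. Most of the listed genes were listed for a known link to interferon, and list members that did not rise were not set beside them. The share therefore does not tell listed genes that rose from those that did not. H2-T23 was the only member of the MHC class I list among the 18. The stretches shown here carry the motif in capitals, read in the direction of the gene and credited to RefSeq, for genes of 4 kinds: antiviral RNA-binding proteins (Ifit3, Ifit1), a ubiquitin-like protein (Isg15), interferon-induced GTPases (Igtp, Irgm2, Gbp2) and an MHC class I molecule (H2-T23), with Stat2, a carrier of the interferon signal itself.
Ifit3: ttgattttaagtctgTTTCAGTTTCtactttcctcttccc
Ifit1: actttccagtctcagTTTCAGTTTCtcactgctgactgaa
Isg15: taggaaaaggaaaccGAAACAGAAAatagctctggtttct
Igtp: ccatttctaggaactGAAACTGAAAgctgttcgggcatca
Irgm2: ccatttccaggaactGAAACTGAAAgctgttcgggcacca
Gbp2: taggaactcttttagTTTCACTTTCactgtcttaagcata
H2-T23: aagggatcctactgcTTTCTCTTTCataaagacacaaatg
Stat2: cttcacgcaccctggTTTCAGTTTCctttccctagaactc
They lie at chr19:34583392-34583431, chr19:34640789-34640828, chr4:156200860-156200899, chr11:58199507-58199546, chr11:58214898-58214937, chr3:142620589-142620628, chr17:36032801-36032840 and chr10:128270261-128270300, in that order; Isg15 and H2-T23 are on the minus strand and the other 6 genes on the plus strand. Each stretch lies before a RefSeq transcript start. By GENCODE positions that of H2-T23 (start 36032855) and most of that of Gbp2 (start 142620602) lie within the gene. The stretch of Ifit3 is identical to that of its neighbour Ifit3b at all 40 bases. Those of Igtp and Irgm2 share 38 of 40, whereas those of Ifit3 and Ifit1 share 18 of 40. The E-box letters CANNTG, to which Scx-type factors bind, were about as frequent in genes that rose (71.9%), in genes that fell (74.3%) and in the tested genes (69.0%).

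Irf7, a transcription factor that amplifies the interferon response, stood at 1589.6, 1493, 2259.5 and 2729 in the Scx+ libraries, at 6581, 13983, 11203 and 9531 in the Scx- libraries and at 231, 302 and 271 in the unstimulated ones. The lowest Scx- value was above the highest Scx+ value by a wide margin, and the difference was 2.35 ± 0.27 log2 units (SE; adjusted p = 0.000442, limma). Stat2 stood at 1716, 2023.5, 2095 and 2939 in Scx+ and at 3463, 6841, 5162 and 3594 in Scx- (1.09 ± 0.25, SE, adjusted p = 0.0463, limma), and its call was lost in 6 of the 8 fits without 1 library (adjusted p of up to 0.22). Zbp1, a sensor of Z-form nucleic acid, stood at 334.5, 288, 426.5 and 691 in Scx+ and at 1213, 2789, 2298 and 1877 in Scx-. Usp18, a protease that removes Isg15 from proteins and damps interferon signalling, stood at 202, 305, 313 and 675 in Scx+ and at 1014, 3781, 2206 and 1315 in Scx-. In both genes Scx+ replicate 4 was the highest of its group and still lower than every Scx- library (2.24 ± 0.31 and 2.43 ± 0.41, SE, adjusted p = 0.00187 and 0.00733, limma). Lgals3bp, a secreted glycoprotein that binds galectins, stood at 5969, 5179, 8387 and 7799 in Scx+ and at 11732, 16135, 15841 and 14978 in Scx- (1.12 ± 0.16, SE, adjusted p = 0.00239, limma). Bst2, the virion tether tetherin, differed by 1.17 ± 0.20, Xaf1, a pro-apoptotic protein, by 1.56 ± 0.26, and Oasl1, a 2′-5′ oligoadenylate synthetase-like protein, by 2.42 ± 0.44 (SE; adjusted p = 0.00719, 0.00719 and 0.0117, limma). Ifih1 and Dhx58, RNA helicases that sense or regulate the sensing of double-stranded RNA, rose by 1.56 and 1.69. The genes Ifit2, Ifit3, Ifit3b and Ifit1 stand close together on chromosome 19 (34550694 to 34650009), where 4 of 6 tested genes rose. The bounds of that stretch were set by these 4 genes. How the authors divided reads between near-identical copies such as Ifit3 and Ifit3b is not stated, so single values of such pairs are uncertain.

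Of 22 genes of the Gbp and Irg families and their relatives, GTPases that act against intracellular pathogens, 7 were higher and 0 lower, all 22 were positive, and the median was 1.53. Gbp3, a guanylate-binding protein, stood at 715, 670.0, 999 and 1454 in Scx+ and at 1840.1, 4816, 3932 and 2328 in Scx- (1.71 ± 0.30, SE, adjusted p = 0.00996, limma). Igtp, an immunity-related GTPase, stood at 373, 457, 602 and 1042 in Scx+ and at 1523, 4016.5, 2573 and 1245 in Scx- (1.88 ± 0.36, SE, adjusted p = 0.0159, limma). The groups did not overlap, yet the unstimulated libraries held 1919.5, 2337 and 2066, more than any Scx+ library. By their GENCODE positions Igtp and Irgm2 overlap on the plus strand of chromosome 11. The RefSeq start behind the stretch shown for Irgm2 lies beyond the end of Igtp (58207591). How the authors divided reads between this pair is not stated. With Gm12250, Igtp and Irgm2 are the 3 tested genes between 58187739 and 58222782. All 3 rose, and they set these bounds.

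Products of MHC class I genes carry peptides to the cell surface. Of 22 genes of MHC class I and peptide loading, 7 were higher and 0 lower, 20 were positive, and the median was 0.79. H2-K1, a classical class I heavy chain, stood at 17363, 14763, 14814 and 15281 in Scx+ and at 23128, 30163.5, 24492 and 33686 in Scx-, and the groups did not overlap (0.83 ± 0.14, SE, adjusted p = 0.00719, limma). H2-Q4, a non-classical heavy chain, differed by 1.25 ± 0.20 and Tap1, a subunit of the peptide transporter, by 1.07 ± 0.22 (SE, adjusted p = 0.00556 and 0.0244, limma). Psmb8 and Psmb10, subunits of the immunoproteasome that cuts the peptides, rose by 0.88 and 0.80. B2m, the light chain shared by all class I molecules, did not pass, at 0.75 ± 0.24 (adjusted p = 0.272). A stretch of chromosome 17 that holds the MHC, from 33996017 to 36121465, contained 11 of the 128 genes among its 115 tested genes. It was drawn as a run of called genes that all rose, from the first to the last of them. The shared direction of the 11 was therefore set by how the stretch was drawn. The 15 genes of MHC class II presentation had a median of 0.32, with 0 past the threshold. H2 genes are close copies of each other, and how their reads were divided is not stated.

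The order of libraries was shared across the 44 interferon and MHC class I genes that rose. Scx+ replicate 4 was the highest Scx+ library in 41 of the 44, Scx- replicate 2 the highest Scx- library in 38, and Scx- replicate 1 the lowest in 35. In 33 of the 44 all 3 unstimulated libraries lay under all 4 Scx+ libraries, and in 3 they lay above them all. Of the 44 genes, 10 passed in all 8 fits without 1 library: H2-K1, H2-Q4, Lgals3bp, Bst2, Xaf1, Zbp1, Irf7, Usp18, Ifit1 and Ifit3. The number of the 59 induced genes past the threshold was 7 without Scx+ replicate 1, 9 without Scx+ replicate 2, 16 without Scx+ replicate 3, 9 without Scx- replicate 2 and 13 without Scx- replicate 3. Of the 22 GTPase genes 0 passed when Scx+ replicate 1 or 2 or Scx- replicate 2 was left out, 1 when Scx- replicate 3 and 3 when Scx+ replicate 3 was left out. Of the 22 MHC class I genes 2 or 3 passed when any 1 library other than Scx+ replicate 4 or Scx- replicate 1 was left out. Fitted on the 8 day 7 libraries alone, 6 of the 59, 0 of the 22 GTPase and 3 of the 22 class I genes passed. With the muscle fibre list as a covariate these numbers were 9, 2 and 2.

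**Figure D3:**
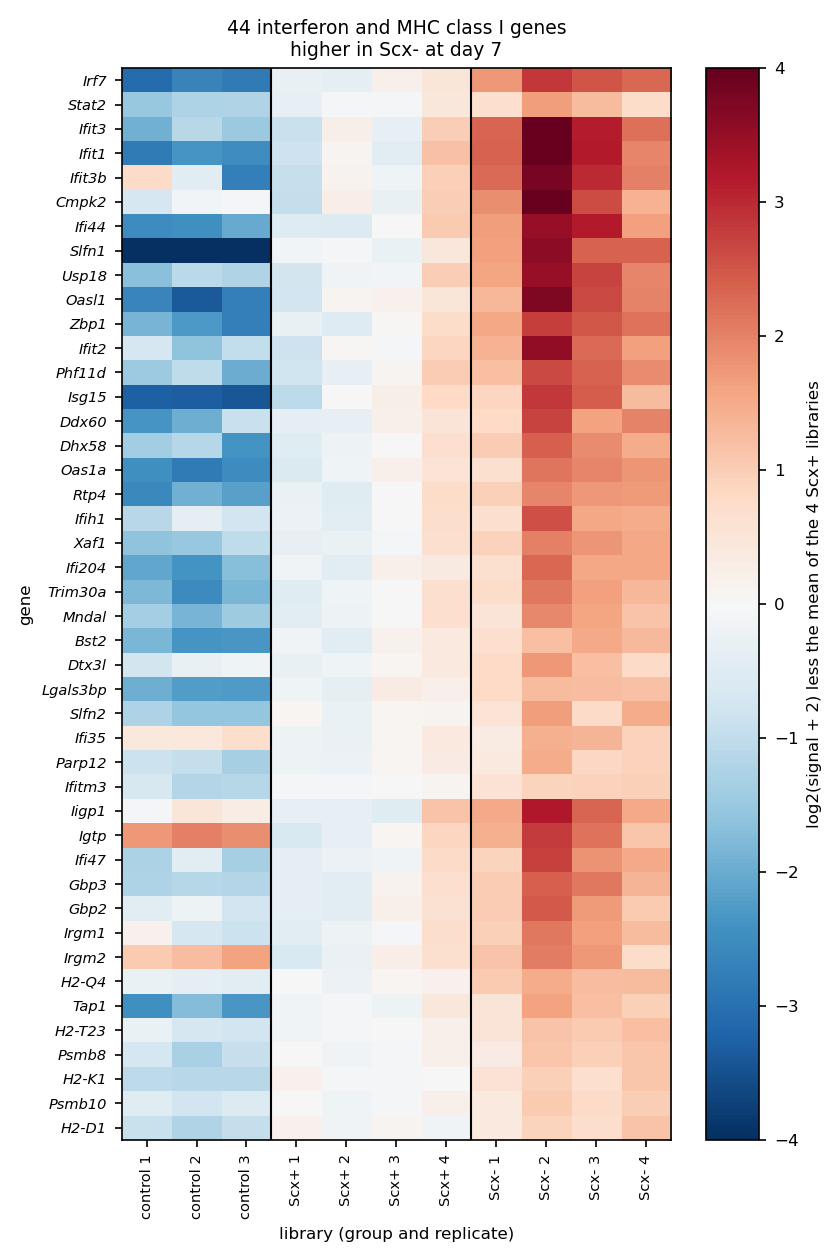
Heat map of the 44 interferon and MHC class I genes higher in Scx- (rows) in the 3 unstimulated, 4 Scx+ and 4 Scx- libraries (columns); colour is log2(rescaled signal + 2) less the mean of the 4 Scx+ libraries of day 7, red above and blue below it, drawn between -4 and 4. The column of Scx- replicate 2 is the darkest red in most rows, Scx+ replicate 4 is the reddest of the Scx+ columns, and the unstimulated columns are blue for most genes.

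The 4 macrophage markers summed to between 758 and 941 ppm in Scx+ and between 814 and 1878 ppm in Scx-, with overlap. Of 21 macrophage and monocyte genes 20 were positive, the median was 0.55, and 1 passed, the high-affinity IgG receptor gene Fcgr1, in 1 of the 8 fits without 1 library (adjusted p of up to 0.195 in the others). Of 19 lymphocyte genes 13 were positive, the median was 0.90, 6 were higher at an unadjusted p under 0.05, and 1 passed, Gzma, the granzyme A of cytotoxic lymphocytes, at 41.8, 46.0, 14.5 and 56.9 in Scx+ and 114, 866, 279 and 471 in Scx-. The groups did not overlap (3.17 ± 0.68, SE, adjusted p = 0.0308, limma), the call held in 2 of the 8 fits without 1 library (adjusted p of up to 0.174), and Gzmb stayed short of the threshold at 3.01 ± 0.76 (adjusted p = 0.0849). The 4 markers of plasmacytoid dendritic cells, strong producers of interferon, summed to 189 to 261 ppm in Scx+ and 253 to 308 ppm in Scx-, with overlap. Bst2, which interferon induces in other cells too, is 1 of the 4, at 2026 to 3562 in Scx+ and 4310 to 7674 in Scx-. Tcf4 had the largest values and went the other way, at 6168 to 7301 in Scx+ and 5563 to 5937 in Scx-. Siglech (at most 33.5 in Scx+ and 68.4 in Scx-) and Ccr9 (at most 18.2 and 24.7) were low and overlapped. The sum therefore says little about these cells. The part of immune cells in the rise of interferon genes was not tested. Of 23 complement genes 1 was higher, Cfb, factor B of the alternative pathway (0.90 ± 0.16, SE, adjusted p = 0.0117, limma), lost only without Scx- replicate 2 (adjusted p = 0.0604). None of 37 chemokine genes and receptors passed. Cxcl10, an interferon-induced chemokine, stood at 204, 362, 113.5 and 413 in Scx+ and at 1372, 6528, 2192 and 494.5 in Scx-. Scx- replicate 4 lay close to the highest Scx+ library, and the difference of 2.85 ± 0.84 did not pass (SE, adjusted p = 0.185, limma).

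Among the other 28 genes that rose, a cluster on the minus strand of chromosome 14 stood out by its evenness. Plac9a and Plac9b, a pair of copies of a gene for a small secreted protein, and Tmem254b, which encodes a membrane protein, lie between 25887506 and 26207041. In that stretch, whose bounds were set by these genes, 3 of 7 tested genes rose. Plac9a stood at 676.5, 627.5, 467 and 480.4 in the Scx+ libraries and at 2776, 2566, 3442 and 4272 in the Scx- libraries, and the unstimulated libraries held 5546.5, 4539 and 7482, above both. Plac9b stood at 996, 815.5, 653 and 542 in Scx+ and at 3885, 2669, 4142 and 4351 in Scx-. Tmem254b stood at 1359, 1348, 1086 and 1098 in Scx+ and at 3298, 2271, 3259 and 4194 in Scx-. Every Scx- library lay above every Scx+ library in all 3 genes, with differences of 2.52 ± 0.25, 2.33 ± 0.36 and 1.39 ± 0.21 log2 units (SE; adjusted p = 9.94e-05, 0.00475 and 0.00369, limma). Lrmda, named for melanocyte differentiation, lies on the plus strand of the same chromosome (22019712 to 23056085) and stood at 8.6, 4.4, 23.4 and 13.6 in Scx+ and at 123, 119, 87.5 and 179.5 in Scx- (3.29 ± 0.61, SE, adjusted p = 0.0121, limma). Its adjusted p reached 0.0675 in the fits that left out Scx+ replicate 1 or 2 or Scx- replicate 2. Of 13 genes tested in the list for this region 4 rose and the median was 0.39. Reads shared by the copies may have been divided between them in a way that is not stated.

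The remaining rises stand outside the interferon and MHC class I lists, which do not hold every related gene. Among them H2-T24, H2-T10 and H2-Bl lie in the MHC stretch of chromosome 17. Gm12250 lies in a run of called genes with the listed Igtp and Irgm2, and Slfn4 in a run with the listed Slfn1. The number of interferon and MHC class I genes that rose is thus a count of list members. Apobec1, a cytidine deaminase that edits RNA, stood at 1927, 2352, 2367 and 2541 in Scx+ and at 4348, 7192, 5608 and 10549 in Scx- (1.52 ± 0.23, SE, adjusted p = 0.00354, limma). Rcan2, an inhibitor of the phosphatase calcineurin, stood at 626, 614, 574.5 and 517 in Scx+ and at 955, 1093, 1037 and 1290.3 in Scx- (0.90 ± 0.15, SE, adjusted p = 0.00744, limma). Both genes were tightly grouped in Scx+ and wholly above that level in Scx-. Gdf3, a ligand of the TGF-beta family made by some macrophages, stood at 46.6, 106, 48.3 and 20.5 in Scx+ and at 199, 312, 486.5 and 1026 in Scx-, with replicate 4 the highest (3.09 ± 0.55, SE, adjusted p = 0.0106, limma). Sp140 and Sp110, chromatin readers of nuclear bodies, differed by 1.11 ± 0.19 and 1.44 ± 0.24, and Slfn4, a schlafen protein of myeloid cells, by 2.25 ± 0.39 log2 units. These 6 genes passed in every fit without 1 library. Esr1, the oestrogen receptor to which tamoxifen binds, stood at 588, 463, 755 and 608 in Scx+ and at 1135.5, 1092, 1361 and 1197 in Scx- (a 1.98-fold ratio of the means, adjusted p = 0.0277, limma). All 8 of these libraries came from mice given tamoxifen, and the call was lost in 6 of the 8 fits without 1 library (adjusted p of up to 0.146). Psca, a membrane-anchored protein of the Ly6 family, was listed at 0 in all 4 Scx+ libraries and at 11.7, 14.7, 35.6 and 3.3 in the Scx- libraries.

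Genes of red cell precursors gave the largest falls. Of 28 erythroid genes other than globins, 8 were lower and 0 higher, 21 were negative, and the median was -0.64. Alas2, the erythroid form of the enzyme that starts haem synthesis, stood at 5148, 19222.5, 9679 and 4251 in the Scx+ libraries, at 71.5, 8.9, 236 and 30.5 in the Scx- libraries and at 258, 286 and 311 in the unstimulated ones. Slc4a1, the anion exchanger band 3 of the red cell membrane, stood at 348, 1747, 1118 and 300.2 in Scx+ and at 4.1, 0.6, 16.5 and 0.0 in Scx-. In both genes Scx+ replicate 2 was the highest library by far, the lowest Scx+ value was above the highest Scx- value, and the differences were -7.32 ± 0.88 and -7.09 ± 1.20 log2 units (SE; adjusted p = 0.000819 and 0.00744, limma). Epb42 (a protein of the membrane skeleton) and Trim10 (a protein of red cell maturation) were low in Scx-, with at most 0.6 and 10.9 in any Scx- library. In Scx+ their means were 45.3 ± 34.4 and 162 ± 91.6 (SD, n = 4 each). Of 6 globin genes tested in the list 4 were lower (Hbb-bs, Hbb-bt, Hbb-b1 and Hbb-b2). How reads of near-identical copies were counted is not stated. In Scx+, Hbb-bt stood at 18975, 76102, 35196 and 15153 and Hbb-b2 at nearly the same values, 18939, 76039, 35063 and 15133. These 2 entries may hold 1 signal under 2 names, so the 4 globin genes and the 12 erythroid and globin genes are counts of entries. Hbb-b2 lost its call in each of the 8 fits without 1 library (adjusted p of up to 0.211). Hbb-bs, Tspo2, which encodes a transporter-like protein of erythroid cells, and Hbq1b, a theta globin, were listed at 0 in all 4 Scx- libraries. Tspo2 and Hbq1b fell as well but stand in no list, so they count among the 44 other genes and not among the 12. Apol11b, an apolipoprotein L gene in none of the lists, followed the same pattern, at 203, 1017, 467.5 and 145 in Scx+ and 0.6, 0.0, 9.0 and 0.7 in Scx- (-6.61 ± 0.89, SE, adjusted p = 0.00146, limma).

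Bpgm and Car2 fell but were still present in every Scx- library. Bpgm, which makes the 2,3-bisphosphoglycerate that regulates oxygen release, stood at 3049, 10206, 5472 and 2257 in Scx+, at 577, 698, 963 and 662.5 in Scx- and at 5388, 6207 and 6743 in the unstimulated libraries (-2.63 ± 0.31, SE, adjusted p = 0.000586, limma). Of the 3 groups it was lowest in Scx-. Car2, a carbonic anhydrase of red cells and osteoclasts, stood at 525, 979, 669.8 and 419 in Scx+ and at 72.6, 105, 75.3 and 63.5 in Scx- (-2.96 ± 0.58, SE, adjusted p = 0.0176, limma), and passed in 2 of the 8 fits without 1 library (adjusted p of up to 0.0865). Tfrc, the transferrin receptor of dividing cells, differed by 0.53 ± 0.28 and Slc25a37, the iron carrier of mitochondria, by -0.97 ± 0.24, and neither passed (SE, adjusted p = 0.767 and 0.0707, limma). Klf1, an erythroid transcription factor, stood between 0.7 and 6.4 in Scx+ and between 0.0 and 9.2 in Scx-, values too low to show a difference in either direction. The 6 erythroid markers summed to between 3364 and 14478 ppm in Scx+, between 3.30 and 140 ppm in Scx- and between 174 and 294 ppm in the unstimulated libraries. Of the 28 erythroid genes 5 passed without Scx+ replicate 2, without Scx- replicate 2 or with the muscle fibre list as a covariate. In 11 of the 12 erythroid and globin genes that fell, all 3 unstimulated libraries lay under all 4 Scx+ libraries. With the mean level of the erythroid list as a covariate, an alternative chosen after seeing the data, 3 genes remained past the threshold in the whole comparison; that level does not overlap between the groups, so the covariate and the genotype can hardly be told apart.

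**Figure D4:**
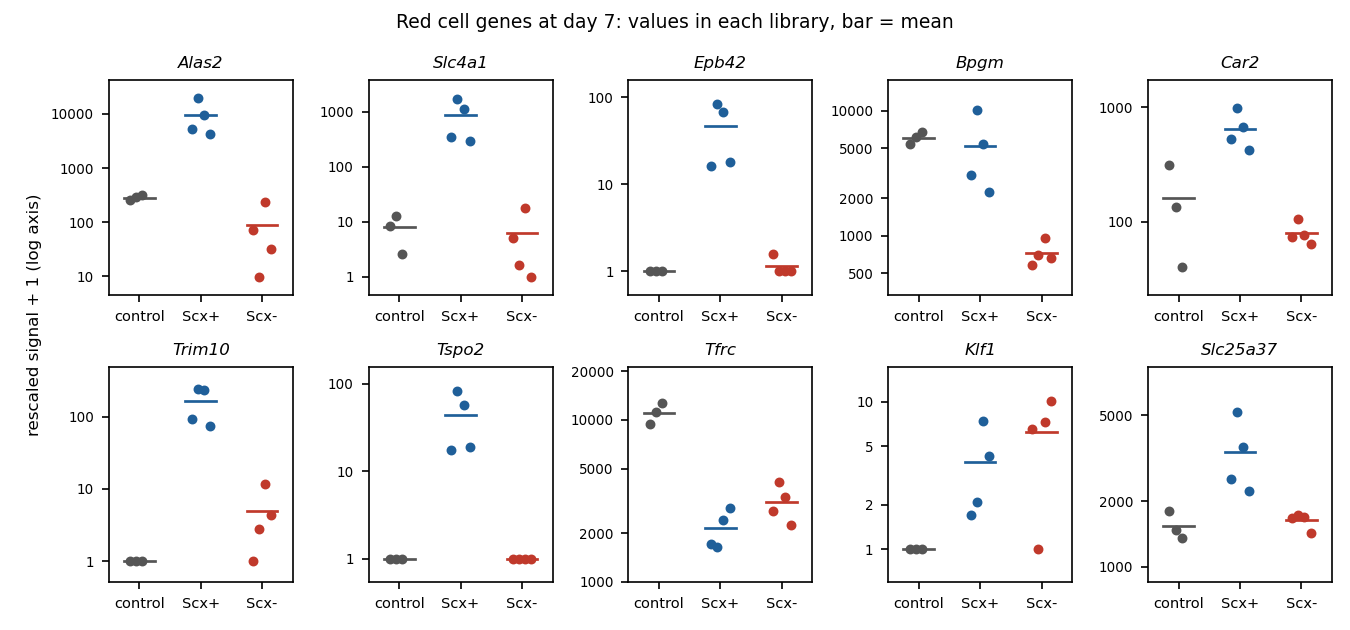
Rescaled signal plus 1 on a log axis for 10 genes of red cells, with 1 point per library for the 3 unstimulated controls (grey), the 4 Scx+ (blue) and the 4 Scx- (red) libraries of day 7 and a bar at each group's mean. In the first 7 panels, the genes past the threshold, all Scx- points lie under all Scx+ points; Tfrc, Klf1 and Slc25a37 did not pass.

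The shares of other cell types give the setting of these differences. All 27 genes of skeletal muscle fibres were positive with a median of 2.15, the largest median of the lists drawn in the plot of gene lists, yet 0 passed. The 27 genes took 0.264%, 0.0411%, 2.38% and 2.42% of the signal in Scx+ and 2.72%, 4.10%, 6.86% and 0.424% in Scx-, with overlap. The unstimulated libraries held 26.5% to 31.8%. The 14 genes of satellite cells and myogenesis had a median of 1.80, with 0 past the threshold. Of 20 endothelial genes 19 were negative with a median of -0.57, and 0 passed. All 28 mitosis genes were negative with a median of -0.20, and 32 of 34 genes of the respiratory chain positive with a median of 0.36, again with 0 past the threshold in either list. Of 15 osteoblast and mineralisation genes 0 passed, with a median of -0.33. The 3 osteoblast markers summed to between 2.77 and 35.8 ppm in Scx+ and between 0.248 and 2.31 ppm in Scx-, without overlap. Ibsp, Sp7 and Bglap are the 3, and the last 2 overlapped between the groups, so that the gap rests on Ibsp. Ibsp, the bone sialoprotein, differed by -4.79 ± 1.10 and just missed the threshold (SE, adjusted p = 0.0521, limma).

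**Figure D5:**
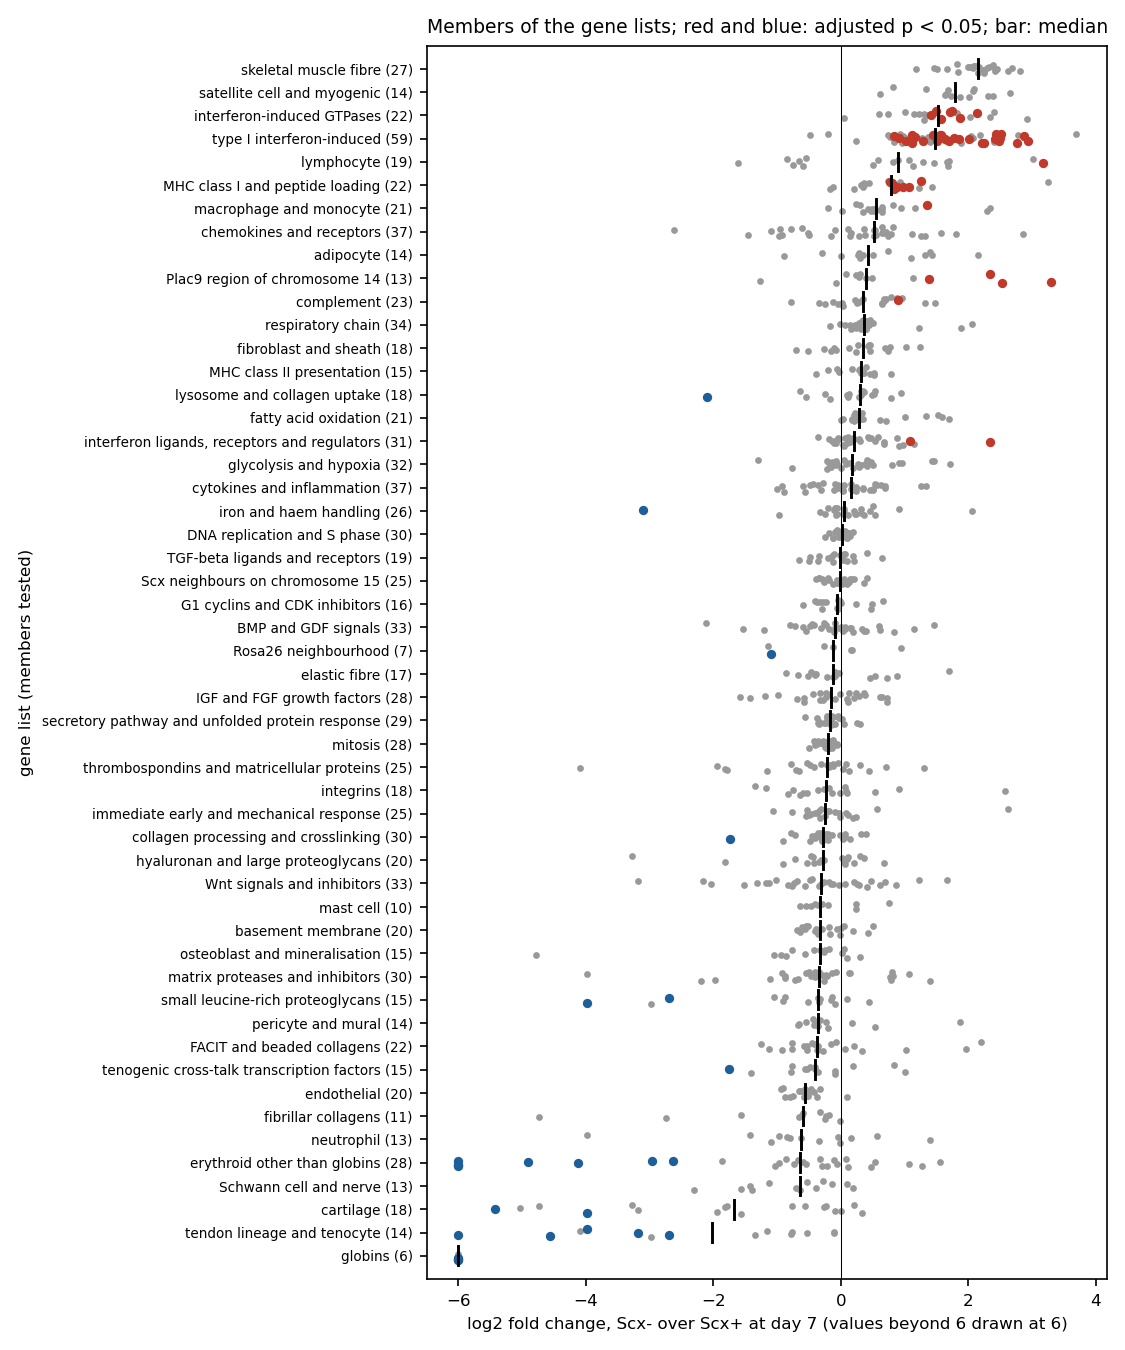
Log2 fold change of Scx- over Scx+ at day 7 (horizontal axis, values beyond 6 drawn at 6) for the members of each gene list with at least 5 tested members (vertical axis, ordered by median, number tested in brackets); red and blue points passed an adjusted p of 0.05 upwards and downwards, grey points did not, and black bars are medians. Red points gather in the interferon and MHC class I lists, blue points in the tendon, erythroid and globin lists, and the muscle list has the highest median, 2.15, without a red point.

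At day 14 the same fit compared another 4 Scx- with another 4 Scx+ libraries. Of the 44 interferon and MHC class I genes that rose at day 7, 14 kept a positive sign and 0 passed at day 14, and their median went from 1.56 to -0.16. Over all 59 genes induced by type I interferon, called or not, the median was 1.48 at day 7 and -0.23 at day 14. Of the 12 erythroid and globin genes 10 stayed negative and 0 passed, with a median of -6.80 at day 7 and -1.98 at day 14. Of the other 44 genes that fell 22 passed again at day 14, among them Scx, Tnmd, Ptx4, Ucma, Chst5, Cybrd1, Aqp2, Nudt11, Lypd6, Zfp185, Eya2, Strbp and Gt(ROSA)26Sor. Of the other 28 genes that rose 8 passed again: Plac9a, Plac9b, Tmem254b, Lrmda, Esr1, Ly6k, H2-Bl and Psca. The 30 genes that passed at both days had the same direction at both. The other 28 rises had a median of 1.61 at day 7 and 0.52 at day 14, and the other 44 falls -2.51 and -1.63. Each called set was picked by its values at day 7, so its median can be smaller in size at another day through that choice alone. A pass at 1 day and not at the other does not show that the days differ, and the test of the difference called 3 of 16625 genes (0.0180%). These were Irf7, -0.21 ± 0.27 at day 14, Ifit3, -0.75 ± 0.42 at day 14, and Bpgm, 0.43 ± 0.31 at day 14, with differences between the days of -2.56 ± 0.38, -3.69 ± 0.60 and 3.07 ± 0.44 log2 units (SE; adjusted p = 0.0238, 0.0496 and 0.0238, limma). For Plac9a the effect was 2.66 ± 0.25 at day 14 and the days differed by 0.14 ± 0.36 (adjusted p = 1), and for Tnmd it was -3.63 ± 0.62 with a difference of -0.45 ± 0.87 (adjusted p = 1).

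The authors' deposited table of comparisons lists 755 of its 15951 genes with an adjusted p under 0.05 for Scx- against Scx+ at day 7, 381 higher and 374 lower. Of the 128 genes called here, 112 are in that table, and all 112 are past 0.05 there in the same direction, which is 87.5% of the 128 and 14.8% of the 755. The authors' deposited table gives Zfp185 a log2 fold change of -2.50 ± 0.26 (SE), Acp5 -2.11 ± 0.32, Cybrd1 -3.17 ± 0.34, Bpgm -2.86 ± 0.41 and Apobec1 1.60 ± 0.26. In the authors' deposited table Mmp9, short of the threshold here, has -3.43 ± 0.81 with an adjusted p of 0.00132.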

How the data were processed

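The authors deposited, per the file headers and values, 1 table of a scaled signal per gene and library, whose values are not whole and do not give back the reads, and 1 table of comparisons with a log2 fold change, a standard error and an adjusted p-value (adjustment method not stated). The submitters' processing notes name FastQC, STAR, DESeq2 and mm10, with no version or role. Neither strand nor the handling of reads shared by paralogues is stated. From the signal, median-of-ratios factors over 13703 genes (day 7: 1.01 to 1.09) gave rescaled values. Genes with a value of at least 10 in at least 3 of 19 libraries (16625 of 24972; 4029 were at 0 throughout) were fitted in limma 3.58.1 (R 4.3.3) on log2(value + 2), all 5 groups in 1 fit, with trend and robust moderation, no covariate and Benjamini-Hochberg adjustment. Lists are described by counts and medians, with no set test.

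Members and lists were chosen with earlier results of these data known. Genes named are Scx; the 20 largest rises and falls among genes past the threshold that have a mean of at least 2 ppm, a regular symbol and no overlap; the 10 with the highest level; and up to 5 members of a list with calls or 2 of one without. Apobec1, Aqp2, B2m, Cilp2, Col11a2, Cxcl10, Dhx58, Esr1, Gm12250, H2-Bl, Hbq1b, Ibsp, Ifi35, Ifih1, Ifnar1, Ifnar2, Irgm2, Isg15, Klf1, Ly6k, Lypd6, Mndal, Nrxn2, Nudt11, Psca, Rcan2, Slc25a37, Sp110, Sp140, Spink8, Strbp, Tap1, Thbs4, Trim10, Tspo2, Zfp185 and the genes in lists of calls shared between days were named after their values were seen. Positions are from GENCODE M21 (GRCm38), and promoter windows from RefSeq (GRCm38.p6).
The alternatives were other scalings, filters and pseudocounts, no robust moderation, quality weights, the 8 day 7 libraries alone, the replicate number as a block, the muscle or erythroid list as a covariate and leaving out each library.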

Additional observations from a re-analysis of the deposited data

Results flagged for a closer look

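In 19 of 342 groups of 4 values examined over the named genes, 1 library stood far from the other 3 of its group; chance gives about 1 in 20 such groups. Scx- replicate 1 stood above the other 3 Scx- libraries for matrix genes: Fmod (30302.7, the others at most 9323), Chad (594.5, at most 159.6), Comp, a thrombospondin-type matrix protein (37903.7, at most 10702.8), Clec3a, a cartilage lectin (982.2, at most 141.7), and Mmp9 (2252.5, at most 397.6). For the red cell gene Epb42 it was the one Scx- library above 0, at 0.6. Scx- replicate 3 stood above the other Scx- libraries for Apol11b (9.0, at most 0.7), and under them for the stem cell factor receptor Kit (218.8, at least 282.7). Scx- replicate 4 was low for Eya2 (57.9, at least 133), high for the disulphide isomerase Pdia3 (34817.3, at most 25144) and the one Scx- library above 0 for the alpha globin Hba-a1 (756.3). Scx- replicate 2 was low for the collagen hydroxylase P3h3 (4564.5, at least 6363.5).

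Scx+ replicate 4 stood above the other Scx+ libraries for Iigp1 (1584.7, at most 569.7) and Ifi47 (899.5, at most 473.8), both induced by interferon, and for the immediate early gene Egr2 (1512.0, at most 503.1). Scx+ replicate 1 was high for Chst5 (584.5, at most 181) and the matrix Gla protein Mgp (28033.0, at most 17919), replicate 2 for Clec3a (11559.4, at most 3338.8) and replicate 3 for the arginine deiminase Padi4 (67.9, at most 25.6).

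In 3 genes the effect of genotype differed between days by the limma test of the difference: Ifit3 by -3.69, Irf7 by -2.56 and Bpgm by 3.07 log2 units (day 14 less day 7).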

How the results depend on the processing

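Leaving out 1 library gave 46 to 186 genes past the threshold (22 to 108 higher, 21 to 78 lower), 7 to 34 of the 59 interferon-induced, 0 to 8 of the GTPase, 2 to 8 of the MHC class I, 2 to 6 of the tendon and 5 to 10 of the erythroid genes, and a log2 ratio of Scx means between -9.29 and -8.57. Day 7 alone gave 101 genes (39 higher, 62 lower) and 6, 0 and 3 in the interferon-induced, GTPase and class I lists. Quality weights gave 478 (239 higher, 239 lower; 45 interferon-induced). The muscle covariate gave 50 (25 and 25), with 2 tendon, 5 erythroid, 9 interferon-induced, 2 GTPase and 2 class I genes. The erythroid covariate, chosen after seeing the data, gave 3 (0 higher, 3 lower), with 1 tendon gene and 0 in the erythroid, interferon-induced, GTPase and class I lists. On the deposited scale 60 were higher and 67 lower (47.2% higher, against 56.2%). With the replicate block, 120 passed (68 higher, 52 lower) and 0 differed between days instead of 3. Same-numbered libraries did not deviate together (r = -0.0583, -0.284, 0.251 and -0.428), so the numbers were not taken as pairs. List medians that changed sign were iron (-0.04 on the deposited scale, -0.03 with quality weights, -0.01 without Scx- replicate 4, where leaving out 1 library gave -0.01 to 0.13, and -0.10 with the erythroid covariate), proteoglycans (0.01 with the muscle covariate), Rosa26 neighbours (0.08 without Scx- replicate 3, otherwise down to -0.22 without Scx- replicate 4), and macrophage (-0.37) and lysosome genes (-0.20 with the erythroid covariate). Other scalings, filters and pseudocounts gave 110 to 162 calls. The cause of these changes was not tested. Depth is unknown, which limits low genes most.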
